A study of Mus musculus with 8 samples.

Results

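The comparison described here sets AKT-induced mouse salivary gland tumours taken after 14 days of rapamycin against normal parotid gland, with 2 arrays in each group, so 4 of the 8 arrays of the series. The arrays were chosen by their labels alone. The labels name parotid and submandibular glands as the normal tissues and give no treatment for them. The other arrays are 2 untreated tumours, 1 tumour treated for 3 days and 1 submandibular gland. The strain, age and sex of the mice, the rapamycin dose and the promoter that drove AKT are not given in the sources used here. Nothing in the labels ties the arrays of a group to different animals, and every p-value therefore measures only the spread between these samples. The question is what still set a tumour site apart from parotid gland after treatment: remaining tumour transcripts, gland identity and stroma.

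The parotid gland of the mouse consists mostly of serous acini, whose cells secrete amylase and proline-rich proteins, drained by ducts that modify the saliva. The submandibular gland contains in addition the granular convoluted ducts, which store kallikreins, renin and epidermal growth factor, and which androgens enlarge in male mice. AKT is a kinase downstream of phosphatidylinositol 3-kinase that promotes growth in part through mTOR complex 1, and rapamycin, bound to the immunophilin FKBP12, inhibits that complex.

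A level below is the log2 processed signal of a gene's probe relative to the 75th percentile of its array, so a level of 0 is that percentile and 1 unit is a factor of 2. Levels of different genes come from different probes and are not compared with each other. The 75th percentile signal was 177 and 236 at day 14 and 384 and 145 in parotid, within a range of 145 to 972 over all arrays. Across genes the levels correlated at 0.986 between the day 14 arrays, at 0.927 between the parotid arrays, at 0.899 to 0.908 between day 14 and parotid, at 0.897 and 0.900 between day 14 and the submandibular gland, and at 0.739 to 0.745 between day 14 and untreated tumour. The parotid label fits its marker genes: Amy1, salivary amylase, stood at 9.82 and 10.94 and Bpifa2, parotid secretory protein, at 9.69 and 10.95 on the parotid arrays, against 4.05 and 0.41 on the submandibular array. The parotid arrays differed from each other in sex chromosome transcripts. Xist, expressed from the inactive X, was at 4.54 on parotid array 1 and -5.09 on array 2, whereas the Y-linked Ddx3y was at -5.96 and 1.18. At day 14 Xist was at -2.02 and -2.32 and Ddx3y at 1.79 and 1.49, the Y-linked value therefore lying near that of parotid array 2, and the submandibular array had Xist at 3.16 and Ddx3y at -5.0.

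Of 16375 genes tested with limma, 1866 (11.4%) differed between day 14 and parotid at a Benjamini-Hochberg adjusted p under 0.05. Of these, 1033 (6.31% of all genes tested) were higher at day 14 and 833 (5.09%) lower, and the median difference over all genes was -0.01. The count called in each list below is to be read against these shares. Most of the calls exceeded a factor of 2, 1757 of the 1866. The values of the 2 groups did not overlap for any called gene, but they did not overlap for 55.8% of all genes either. Large fitted rises included products of the granular ducts and other secretory genes (Ren1, Ren2, Smgc, Lman1l, Klk1b1), with Bpifb9a, a secreted lipid-binding family protein abundant in the untreated tumours, and the fat genes Ucp1 and Cidea. A2ml1, a protease inhibitor of the alpha-2-macroglobulin family, was also among the 10 largest. Of the named genes that passed, A2ml1, Smgc, Lman1l, Ren1, Bpifb5, Mybl2, Neb, Ttn, Timp4 and Tnfrsf19 were well above background on 1 of the 2 parotid arrays, and Col6a2, Gdpd3 and Vnn3 on 1 of the 2 day 14 arrays. The size of their difference therefore rests in part on a value near background. The largest falls included the mast cell chymases Mcpt4 and Cma1 and the parotid proline-rich protein gene Prpmp5. Slide 1 carried array 1 of day 14 and array 1 of parotid, and slide 2 carried array 2 of each. With the slide as a fixed block 1512 genes were called, 848 higher and 664 lower. On slide 1 the untreated tumours are the only replicated group. Slide 2 holds no replicated group and allows no test of its own. The calls depend on the spread among a few arrays: 690 genes passed when only the 4 arrays compared were fitted. Fewer passed without 1 or the other untreated tumour array, and all calls were lost without either day 14 array. More passed without 1 or the other parotid array, in a fit that takes no spread from the parotid pair. A group left with 1 array lends no spread, so only medians are given below for fits without a parotid array.

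**Figure D1:**
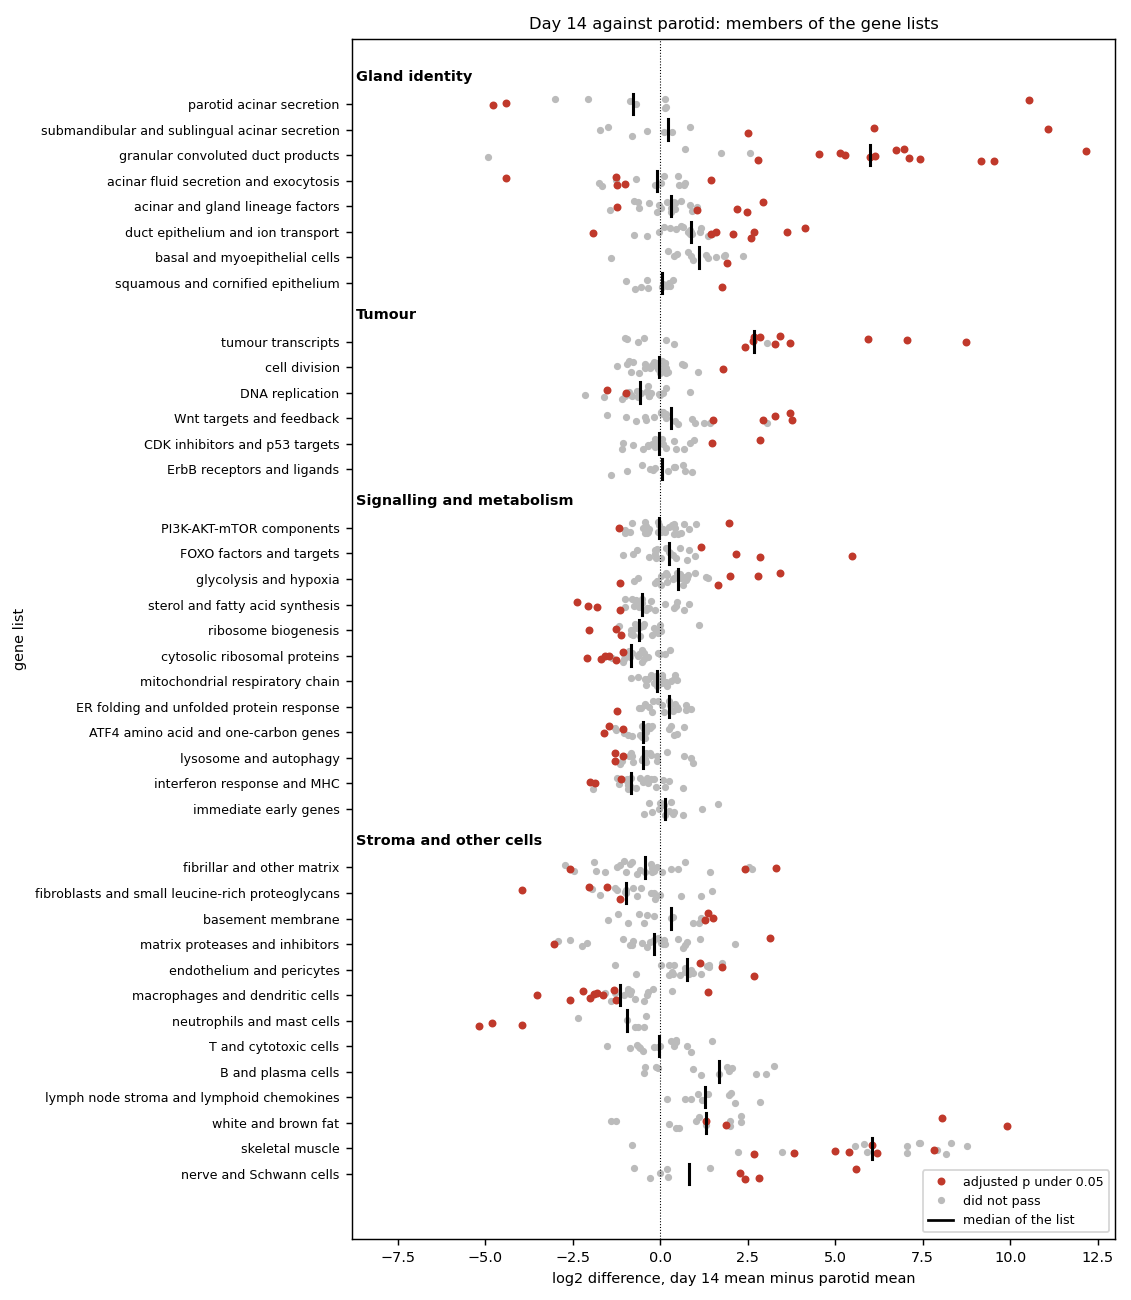
Differences between day 14 and parotid (log2, horizontal axis) for each tested gene of the named gene lists (rows), with coloured points for genes past an adjusted p of 0.05, grey points for the others and a bar at each list's median. Granular duct and skeletal muscle genes lie far to the right, with medians of 6.0 and 6.05, and macrophage and fibroblast genes mostly to the left, with medians of -1.16 and -0.97.

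Products of the granular convoluted ducts were the gland genes that differed most. Of 17 tested, 13 were higher at day 14, none passed as lower, and the median difference was 6.0. The kallikreins of this list are serine proteases encoded side by side on chromosome 7. They have near-identical sequences, so probes may cross-hybridise and single members are uncertain. The starts of 6 of them are shown because these neighbours have similar promoter sequences yet differed by unequal amounts: Klk1b8, Klk1b1, Klk1b9, Klk1b24 and Klk1b27, which rose, and Klk1b4, which did not pass. Each line is the 100 bases before the transcription start from RefSeq, on the plus strand of GRCm38.p6, 5′ to 3′, for Klk1b8 at chr7:43950566-43950665, Klk1b1 at chr7:43966651-43966750, Klk1b9 at chr7:43975961-43976060, Klk1b24 at chr7:44188136-44188235, Klk1b27 at chr7:44052190-44052289 and Klk1b4 at chr7:44207333-44207432. Capitals mark the motif TTTAAA, which is its own reverse complement and resembles the core promoter element named the TATA box.
Klk1b8: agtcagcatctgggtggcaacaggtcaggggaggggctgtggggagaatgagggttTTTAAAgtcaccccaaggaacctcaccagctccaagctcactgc
Klk1b1: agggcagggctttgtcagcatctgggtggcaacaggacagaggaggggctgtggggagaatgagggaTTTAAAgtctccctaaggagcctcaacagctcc
Klk1b9: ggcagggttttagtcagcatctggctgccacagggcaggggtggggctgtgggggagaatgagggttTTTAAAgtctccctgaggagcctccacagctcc
Klk1b24: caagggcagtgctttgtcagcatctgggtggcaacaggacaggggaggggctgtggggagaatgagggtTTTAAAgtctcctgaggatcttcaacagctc
Klk1b27: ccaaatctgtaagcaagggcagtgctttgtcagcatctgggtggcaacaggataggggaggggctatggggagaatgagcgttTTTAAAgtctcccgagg
Klk1b4: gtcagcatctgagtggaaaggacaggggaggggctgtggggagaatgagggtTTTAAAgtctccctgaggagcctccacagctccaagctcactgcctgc
The motif began 44 bases before the start in Klk1b8, 33 in Klk1b1 and Klk1b9, 31 in Klk1b24, 17 in Klk1b27 and 48 in Klk1b4. TTTAAA was found within 250 bases upstream of the start for 12 of the 14 listed kallikreins, against 12.1% of 32851 mouse promoters in the same table. The kallikrein promoters resemble each other, so the 12 are not independent and the share of all promoters is no test of them. Klk1b4, which did not pass, carries the motif too. The match is a description of these letters and not of a factor's binding.

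Among those kallikreins, Klk1b8 was at 9.35 and 9.80 at day 14 and at 6.55 and 7.02 in parotid, a difference of 2.79 ± 0.55 (SE, n = 2 arrays per group, limma adjusted p = 0.0305). Klk1b9 was at 9.39 and 9.32 against 2.38 and 4.08 (6.12 ± 0.58, adjusted p = 0.00615). Klk1b27 was at 8.59 and 8.64 against 1.24 and 2.52 (6.73 ± 0.45, adjusted p = 0.00246). In each case both day 14 arrays lay well above both parotid arrays and above the single submandibular array, at 9.25, 8.85 and 7.27. Klk1b24 stood at 9.64 and 9.57 against 1.25 and 3.76, a difference of 7.10 ± 0.73 (adjusted p = 0.0073). Klk1b1 was well above background on both day 14 arrays, at 3.82 and 3.50, and on neither parotid array, which makes it at least 557-fold higher (adjusted p = 0.00152). Such a bound takes for each dim array the higher of the gene's own value and the lowest signal that the scanner software called well above background on that array. Klk1b4, at 9.92 and 9.76 against 6.65 and 7.91, did not overlap between groups either but did not pass (2.56 ± 0.84, adjusted p = 0.101), nor did Klk1 (0.71 ± 1.21) or Klk1b3 (1.74 ± 0.63). The other kallikreins that rose were Klk1b26 by 4.54, Klk1b11 by 5.28, Klk1b21 by 6.95 and Klk1b16 by 7.41.

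The remaining granular duct products were also higher, except Crisp1. Ren1, which encodes the aspartyl protease renin, was at 10.22 and 10.39 at day 14 and at -3.79 and 0.06 in parotid, a measured difference of 12.17 ± 1.10 (adjusted p = 0.0053). Its neighbour Ren2, whose sequence is nearly the same, differed by 11.44 ± 1.11 (adjusted p = 0.00666). The parotid arrays differed from each other by several units for both, and array 1 was not well above background for Ren1. Egf, encoding epidermal growth factor, was at 9.21 and 8.80 against 2.85 and 3.16, or 6.0 ± 0.25 (adjusted p = 0.00092). It was also high on the submandibular array, at 8.09, and low in untreated tumour, at -3.13 and -2.73. Crisp3, a cysteine-rich secretory protein gene, rose by 5.14 ± 0.27 (adjusted p = 0.00129). Its relative Crisp1 went the other way, at 3.65 and 3.52 against 8.51 and 8.50, a difference of -4.92 ± 1.26 that did not pass (adjusted p = 0.0558, and 0.00186 to 0.265 over the alternatives). The Crisp1 values lay close together within each group, and the fitted spread also takes in the untreated tumours. With only the 4 arrays fitted Crisp1 passed as lower. The summed level of the list was 13.20 and 13.26 at day 14, 10.12 and 10.74 in parotid, 12.90 in submandibular gland and -0.01 and 0.70 in untreated tumour. The median of the list was 5.35 without parotid array 1, whose Y-linked transcripts were low, and 6.16 without parotid array 2. The part of sex in these values was not tested.

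**Figure D2:**
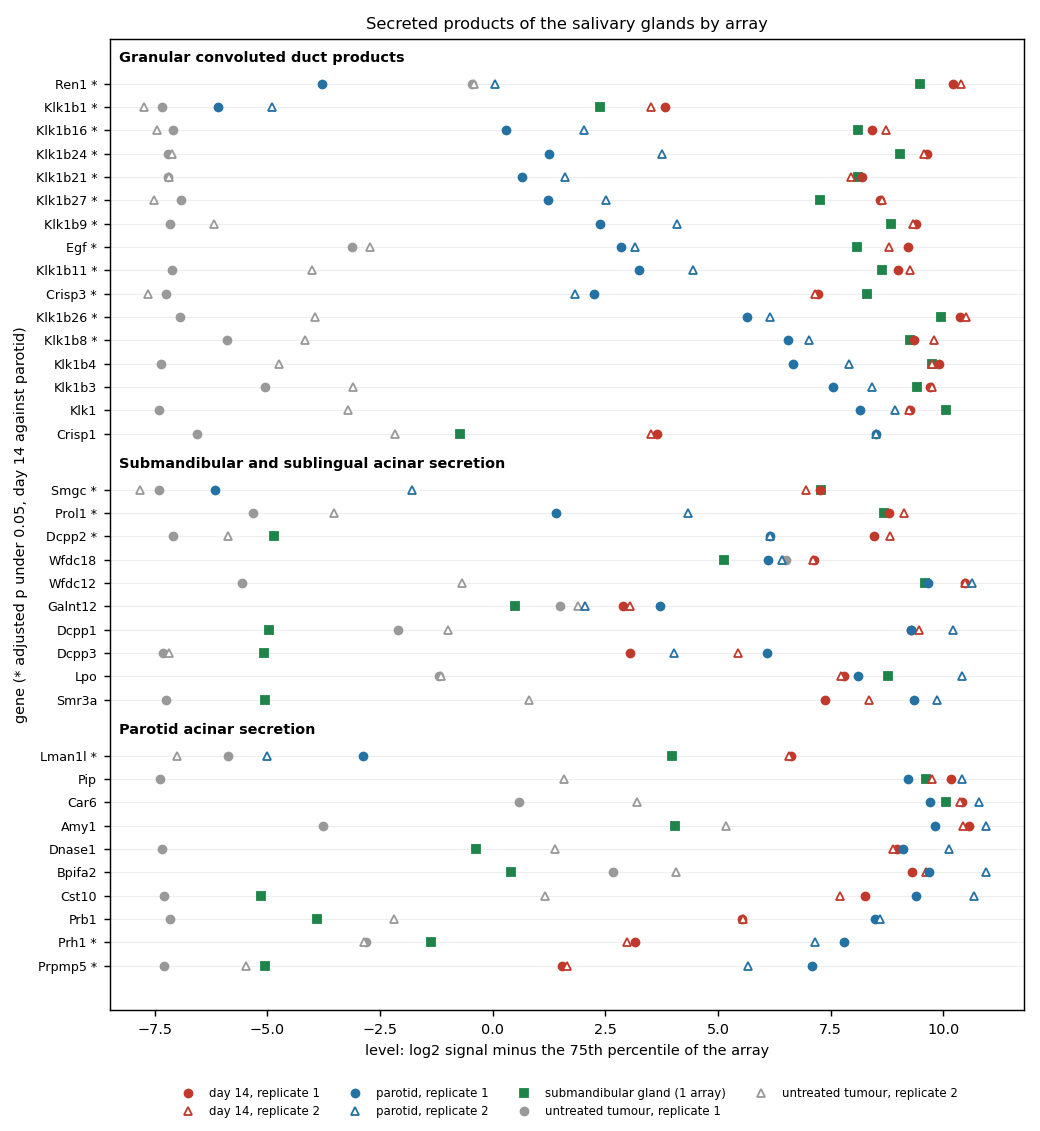
Level (horizontal axis, log2 relative to the array's 75th percentile) of the reported genes of the granular duct, submandibular acinar and parotid acinar lists (rows), 1 mark per array of day 14, parotid, submandibular gland and untreated tumour, with asterisks on genes past an adjusted p of 0.05 between day 14 and parotid. Ren1 lies at 10.22 and 10.39 at day 14 and 9.49 in submandibular gland, far above parotid, whereas Amy1 overlaps between day 14 and parotid.

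Among genes secreted by submandibular and sublingual acini a few were higher. Of 10 tested, 3 were higher at day 14 and none lower, with a median of 0.22. Smgc, a submandibular gland product that shares its locus with the mucin gene Muc19, was at 7.25 and 6.95 at day 14 against -6.17 and -1.80 in parotid (11.09 ± 1.27, adjusted p = 0.00868) and at 7.28 in submandibular gland. Prol1, a proline-rich secretory protein, was at 8.80 and 9.13 against 1.40 and 4.34 (6.10 ± 0.99, adjusted p = 0.0202). Day 14 and the submandibular array were thus both high for these genes, and parotid low. Dcpp2, a demilune cell protein, was at 8.47 and 8.82 against 6.15 and 6.15 (2.50 ± 0.41, adjusted p = 0.0206), yet it was at -4.85 on the submandibular array. Its close copies Dcpp1 (-0.37 ± 0.45) and Dcpp3 (-0.81 ± 0.93) did not pass. Wfdc12 and Lpo, encoding a whey acidic protein family inhibitor and lactoperoxidase, did not pass, with differences of 0.34 ± 1.42 and -1.49 ± 0.68. The median of the list was 0.46 without parotid array 1 and 0.46 without array 2.

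The summed level of parotid acinar products was 12.46 and 12.34 at day 14, 12.31 and 13.35 in parotid and 3.03 and 6.14 in untreated tumour. Of 10 listed genes, 1 was higher and 2 lower, with a median of -0.77. Prpmp5 was at 1.54 and 1.66 at day 14 against 7.09 and 5.66 (-4.78 ± 0.70, adjusted p = 0.0159). Prh1 was at 3.15 and 2.97 against 7.79 and 7.15 (-4.41 ± 0.27, adjusted p = 0.00197), but its other probe gave 3.52, of the opposite sign. Both day 14 arrays lay far above the untreated tumours, where Prpmp5 was at -7.29 and -5.48. Prb1, a further proline-rich protein, was at 5.54 on both day 14 arrays against 8.49 and 8.60. Its difference of -3.0 ± 1.42 did not pass (adjusted p = 0.213), with adjusted p of 0.00881 to 0.498 over the alternatives. The Prb1 values lay close together within each group, and the fitted spread also takes in the untreated tumours. With only the 4 arrays fitted 3 of the 10 genes passed as lower. For Amy1 the groups overlapped, at 10.57 and 10.44 against 9.82 and 10.94 (0.12 ± 2.56, adjusted p = 0.988). Its large standard error comes with the untreated tumours, at -3.77 and 5.18, which share the fitted spread. Car6, secreted carbonic anhydrase, and Pip, prolactin-inducible protein, both differed by 0.15, with standard errors of 0.84 and 2.57, and their groups overlapped too. Bpifa2 (-0.86 ± 0.58), Cst10, a cystatin (-2.05 ± 2.43), and Dnase1, a secreted nuclease (-0.68 ± 2.49), were below parotid on both arrays without passing. Lman1l, which encodes a lectin related to cargo receptors of the early secretory pathway, was the exception in this list, at 6.62 and 6.58 against -2.87 and -5.0 (10.54 ± 0.73, adjusted p = 0.00291), with 3.98 on the submandibular array. Its 2 probes gave 5.10 and 10.54. As a bulk measurement, none of these differences can tell a change in the number of cells from a change in RNA per cell.

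Some channels and transporters of fluid secretion were lower. Of 18 genes tested, 4 (22.2%) were lower and 1 (5.56%) higher, with a median of -0.10. Over all genes 5.09% were lower and 6.31% higher. Cldn22, a tight junction claudin, was at 2.35 and 2.73 against 6.74 and 7.15 (-4.41 ± 0.59, adjusted p = 0.0129). Ano1, the calcium-activated chloride channel of acinar cells, fell by 1.27 (adjusted p = 0.0213), Kcnn4, a calcium-activated potassium channel, by 1.24 (adjusted p = 0.0406) and Slc12a2, the basolateral sodium-potassium-chloride cotransporter, by 1.01 (adjusted p = 0.0355). These 3 genes take part in the chloride transport that drives primary saliva. Itpr2, an inositol trisphosphate receptor, was higher by 1.46 ± 0.23 (adjusted p = 0.0193). The median of the list was -0.65 without parotid array 1 and 0.25 without array 2. Aqp5, the apical water channel, overlapped at 7.02 and 7.06 against 6.81 and 7.41 (-0.07 ± 0.28, adjusted p = 0.916).

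Several duct and transporter genes were higher. Of 25 tested, 7 (28.0%) rose and 1 (4.0%) fell, against 6.31% and 5.09% of all genes, with a median of 0.88. The median was 0.68 without parotid array 1 and 1.40 without array 2. With only the 4 arrays fitted the count of rises became 2. Cftr, the chloride channel of duct cells, was at 1.06 and 0.49 against -3.71 and -3.02 (4.14 ± 0.44, adjusted p = 0.00741). The epithelial sodium channel subunits Scnn1b and Scnn1g rose by 2.61 ± 0.45 and 2.07 ± 0.44 (adjusted p = 0.0226 and 0.036), while Scnn1a, at 1.36 ± 0.38, did not pass (adjusted p = 0.0668). On the submandibular array Scnn1b was at 2.92 and Scnn1g at 2.21, and these, like Cftr, lay above both parotid arrays. Cldn4, a claudin, was at least 12.2-fold higher and Slc9a3, an apical sodium-proton exchanger, at least 6.46-fold higher. Wfdc2 and Slc26a6, an anion exchanger, rose by 1.60 and 1.45. Car2, a cytosolic carbonic anhydrase, fell by 1.92 (adjusted p = 0.0283), at 0.26 and 0.88 against 2.97 and 2.02. The simple epithelial keratins Krt8 (-0.38 ± 0.57) and Krt18 (0.09 ± 0.34) did not pass.

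Among 23 lineage factors 4 (17.4%) were higher and 1 (4.35%) lower, against 6.31% and 5.09% of all genes, with a median of 0.32. Sox2, a transcription factor of progenitor cells, was at -2.23 and -2.47, above background on both day 14 arrays and on neither parotid array, and at least 7.62-fold higher (adjusted p = 0.0251). Tfcp2l1 and Ascl3, transcription factors expressed in salivary ducts, rose by 2.48 ± 0.45 and 2.19 ± 0.43 (adjusted p = 0.0247 and 0.0309). Both were also high on the submandibular array, at 5.68 and 3.55. Pitx1 rose by 1.05 ± 0.22 (adjusted p = 0.0365). Xbp1, a regulator of secretory capacity, fell by 1.22 (adjusted p = 0.0251), at 2.67 and 2.71 against 3.89 and 3.93. Bhlha15, the acinar factor Mist1 (-0.33 ± 0.44), and Sox10 (0.20 ± 0.25) overlapped between the groups. Of 14 basal and myoepithelial genes 1 passed, Myh11, smooth muscle myosin, with a rise of 1.89 ± 0.43 (adjusted p = 0.0435). The median of that list was 1.11, and it turned on the parotid arrays: 1.83 without array 2 and 0.37 without array 1. Of 12 squamous genes only Krt16, a keratin, passed, at least 3.37-fold higher (adjusted p = 0.0385), and 6 of the 12 were above background on neither parotid array. The squamous median was -0.67 without parotid array 1 and 0.37 without array 2.

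Several transcripts that marked the untreated tumours were still above parotid. The list of 17 was taken from an earlier account of these arrays, so its high level in untreated tumour is no finding. At day 14, 10 of the 17 were higher than in parotid and none lower, with a median difference of 2.69. With another background correction (normexp) 6 passed and the median was 0.80. Keeping only probes detected on the 4 arrays compared left 6 of the genes, of which 1 passed as higher, with a median of 0.05. The median of 2.69 thus rests largely on genes dim in parotid. On the parotid arrays 8 of the 17 were above background on neither. The summed level was 9.57 and 9.77 in untreated tumour, 5.13 and 5.14 at day 14, 2.71 and 1.74 in parotid and 1.87 in submandibular gland, so day 14 lay between tumour and gland.

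Bpifb9a was at 3.50 and 3.54 at day 14 against -5.70 and -4.74 in parotid, not above background on either parotid array, and at least 426-fold higher (adjusted p = 0.00092). Its level in untreated tumour was 7.45 and 8.15. Bpifb5, of the same family, was at 3.29 and 3.06 against -2.05 and -3.47 (5.93 ± 0.44, adjusted p = 0.0035) and at 8.20 and 8.28 in untreated tumour. Both were therefore far above either gland and well below tumour. Tmc5, a transmembrane channel-like protein, was at 1.28 and 1.91 against -5.69 and -5.19, at least 130-fold higher (adjusted p = 0.00092), with 3.74 and 3.84 in tumour. Slc16a3, the lactate exporter MCT4, was at 2.81 and 2.75 against -1.13 and -0.13 (3.41 ± 0.33, adjusted p = 0.00685). The zinc transporter gene Slc30a2 was at least 6.28-fold and the protease gene Prss56 at least 6.24-fold higher, although the second probe of Prss56 gave 0.23. Ncam1, a neural cell adhesion molecule, rose by 2.43 ± 0.36 (adjusted p = 0.0158). Its 4 probes disagreed, from -0.046 to 2.86, and keeping only probes detected on all arrays gave it -0.046. Slc9a3, given above with the duct genes, and Sp5 and Wif1, described with the Wnt genes below, were the others that passed. Of the rest, the CDK inhibitors Cdkn1a, at -1.41 and -1.34 against -1.53 and -1.52, and Cdkn2b (0.40 ± 0.29) did not pass, although they stood at 3.90 and 3.33 and at 2.91 and 2.38, respectively, in tumour. Car9, a hypoxia-induced carbonic anhydrase (-0.62 ± 0.73), the neutrophil alarmins S100a8 (-0.94 ± 0.92) and S100a9 (-0.46 ± 0.94), and Fkbp1a, which encodes FKBP12 (-1.0 ± 0.30, adjusted p = 0.0821), did not pass either.

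Wnt ligands stabilise beta-catenin, which turns on a set of feedback inhibitors that serve as readouts of the pathway. Of 24 such genes 5 were higher at day 14 than in parotid and none lower, with a median of 0.29. Wif1, a secreted Wnt inhibitor, was at -0.84 and -0.73 against -4.34 and -4.66 and at least 13.2-fold higher (adjusted p = 0.00217). Sp5, a direct target, was at -2.07 and -2.08 against -5.87 and -4.84 and at least 9.70-fold higher (adjusted p = 0.00991). Their levels in untreated tumour, 5.63 and 5.66 for Wif1 and 5.0 and 4.64 for Sp5, were several units above those at day 14. Nkd1 and Nkd2, intracellular feedback inhibitors, rose by 2.93 ± 0.24 and 1.5 ± 0.20 (adjusted p = 0.00444 and 0.0125). On the submandibular array these stood at 1.36 and 0.85, close to their day 14 levels of 1.66 and 1.19 for Nkd1 and 0.39 and 0.53 for Nkd2. Tnfrsf19 rose by 3.77 ± 0.81 (adjusted p = 0.0377), with the second probe at 0.05. Dkk2, an inhibitor of Wnt receptors, did not pass (adjusted p = 0.0562, and 0.000386 to 0.284 over the alternatives). Axin2, Lgr5, Notum and Dkk4, 4 common readouts, were not above background on any day 14 or parotid array. Ctnnb1, encoding beta-catenin (-0.12 ± 0.23), and Apc (0.20 ± 0.31) did not pass. The median of the list was 0.23 without parotid array 1 and 0.58 without array 2.

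**Figure D3:**
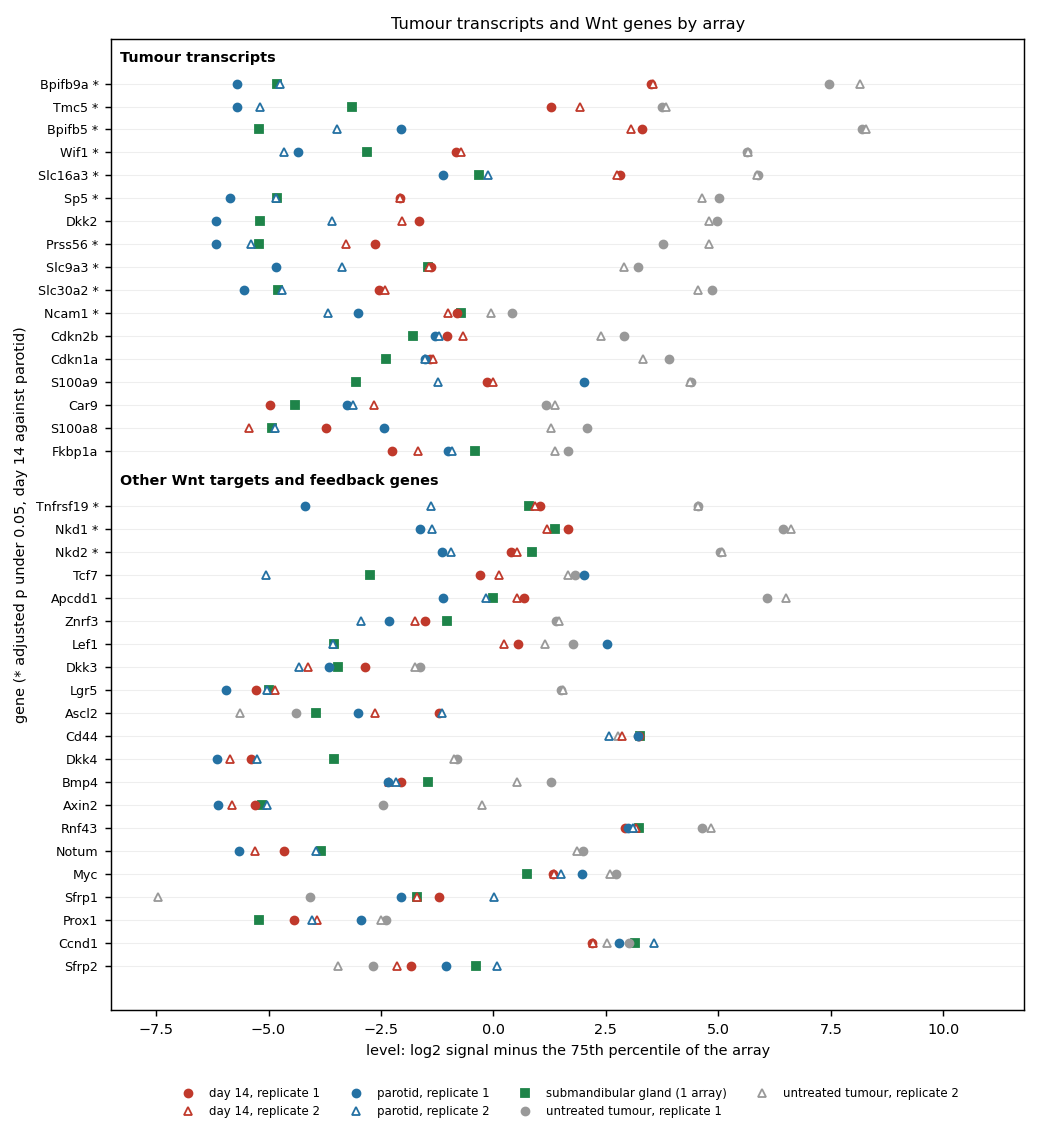
Level (horizontal axis, log2 relative to the array's 75th percentile) of each tumour transcript and of the other Wnt target and feedback genes (rows), 1 mark per array, with asterisks on genes past an adjusted p of 0.05 between day 14 and parotid. Bpifb9a and Tmc5 at day 14 lie between tumour and parotid, whereas Cdkn1a, at -1.41 and -1.34, lies near parotid.

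Cell division genes gave a single call. Of 30 tested, 1 passed as higher and none as lower, with a median of -0.04. Mki67, the proliferation antigen, was at 1.80 and 1.75 at day 14, 2.25 and 1.02 in parotid and 5.28 and 5.27 in untreated tumour. Top2a, topoisomerase II, was at -4.46 and -3.81 against -3.28 and -4.10. Both overlapped with parotid, and of the 30 genes 1 lay above and 3 below parotid on every array. Over all 16375 genes tested, 4373 lay above and 4771 below on every array. Of the 30, 11 were above background on neither day 14 array and 5 on neither parotid array. The median of the list therefore rests in part on dim values. The gene that passed, Mybl2, a transcription factor of the cell cycle, was at -1.21 and -1.25 against -2.49 and -3.57 (1.80 ± 0.40, adjusted p = 0.0409). The parotid arrays pulled the list in opposite directions: the median was 0.55 without array 1 and -0.70 without array 2. Lymphocyte genes, which divide between the parotid arrays in the same way, are described below with their values. DNA replication genes had a median of -0.57, and 2 of 26 passed: Fen1, the flap endonuclease, fell by 1.53 (adjusted p = 0.0191) and Rfc4, a clamp loader subunit, by 0.97 (adjusted p = 0.0476). Of the 26, 7.69% were lower, against 5.09% of all genes. The median was -0.16 without parotid array 1 and -0.94 without array 2. Of 20 CDK inhibitors and p53 targets, Gadd45a, a stress-induced growth arrest gene (2.86 ± 0.27, adjusted p = 0.00626), and Cdkn1c, a CDK inhibitor (1.48 ± 0.28, adjusted p = 0.0283), rose. This is 10% higher, against 6.31% of all genes. The median was 0.02 without parotid array 1 and 0.06 without array 2.

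Many macrophage and dendritic cell genes were lower. Of 24 tested, 9 were lower at day 14 and 1 higher, with a median of -1.16, and 22 of the 24 lay below 0. Under the other scalings and background corrections 7 to 10 were lower, and 4 with only the 4 arrays fitted. The median difference was -1.42 on slide 1 and -1.10 on slide 2. Adgre1, the macrophage surface antigen F4/80, was at 0.39 and 0.40 against 2.23 and 2.97 (-2.21 ± 0.30, adjusted p = 0.013). C1qa, C1qb and C1qc, the subunits of complement C1q made by macrophages, fell by 1.88, 2.01 and 1.63 (adjusted p = 0.0255, 0.013 and 0.0202). The day 14 arrays lay below both glands and below untreated tumour for these genes, with C1qb at 0.57 and 0.21 against 2.10 in submandibular gland. Cd68, a lysosomal protein of macrophages, fell by 1.80, Trem2, a lipid-sensing receptor, by 1.31 and Lyz2, lysozyme, by 1.27. Arg1, arginase, was at -0.18 and -0.24 against 2.91 and 1.84 (-2.58 ± 0.37, adjusted p = 0.0146). Gpnmb, a glycoprotein of lipid-laden macrophages, was above background on neither day 14 array and at least 10.4-fold lower (adjusted p = 0.0386). Cd14, an endotoxin co-receptor, was higher, at 2.50 and 2.23 against 0.59 and 1.41 (1.37 ± 0.32, adjusted p = 0.0454). The summed level of the list was 8.24 and 8.28 at day 14, 9.25 and 9.35 in parotid and 8.49 in submandibular gland.

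Mast cell proteases were detected on both parotid arrays and on neither day 14 array. Mcpt4 was at -4.18 and -4.51 against 0.97 and 0.67, at least 35.9-fold lower (adjusted p = 0.00991). Cma1 was at -4.23 and -4.59 against 0.42 and 0.34, at least 27.7-fold lower (adjusted p = 0.0181), and Cpa3, mast cell carboxypeptidase, at least 15.3-fold lower (adjusted p = 0.00927). All 3 were also low in submandibular gland and in untreated tumour, Mcpt4 at -2.92 and at -5.80 and -7.54. These were the 3 genes that passed of 9 tested neutrophil and mast cell genes, and 1 of the 9 passed with the normexp background. The list had 16 genes named on the array, and those not tested were too dim. Of the 9 tested, 5 were above background on neither day 14 array. Detection on both parotid arrays alone was enough to admit a gene, so the count depends in part on this filter.

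Some fibroblast genes were lower, whereas matrix genes were called about as often as all genes. Of 21 fibroblast genes 4 passed as lower and none as higher, with a median of -0.97. Dpt, dermatopontin, was at -2.98 and -2.79 against 1.23 and 0.89 (-3.94 ± 0.58, adjusted p = 0.0163). Clec3b, tetranectin, fell by 2.02 (adjusted p = 0.0365), Igf1, insulin-like growth factor 1, by 1.53 (adjusted p = 0.0264) and C3, complement component 3, by 1.16 (adjusted p = 0.0225). Dpt and Clec3b were lower still in untreated tumour, Dpt at -6.18 and -7.80. Of 29 matrix genes 2 were higher and 1 lower, with a median of -0.43. Col6a2, a collagen VI chain, fell by 2.59 (adjusted p = 0.0345) and Thbs1, thrombospondin, was at least 5.32-fold higher (adjusted p = 0.039). Fn1, fibronectin, rose by 3.31 ± 0.56 (adjusted p = 0.0214), while its 3 probes disagreed in sign, from -2.28 to 3.31. Col3a1, at 2.34 and 2.57 against 3.82 and 4.25, did not pass (-1.58 ± 0.53, adjusted p = 0.102). Among 25 proteases and inhibitors Mmp2, gelatinase A, fell by 3.04 (adjusted p = 0.0144), and Timp4, an inhibitor, rose by 3.13 ± 0.66 (adjusted p = 0.0355). The medians of the fibroblast, matrix and protease lists were -0.70, -0.35 and -0.05 on slide 1. On slide 2 they were -1.17, -0.59 and -0.64.

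Some basement membrane and vessel genes were higher. Of 15 basement membrane genes Lama5 and Lama3, laminin chains, and Agrn, agrin, rose by 1.51 ± 0.24, 1.28 ± 0.30 and 1.35 ± 0.28 (adjusted p = 0.0186, 0.0467 and 0.0339). Of 23 endothelial and pericyte genes 3 were higher, none lower, and 21 lay above 0, with a median of 0.75. Flt1, a receptor for vascular endothelial growth factor, was at 4.06 and 3.43 against 1.60 and 2.37 (1.76 ± 0.41, adjusted p = 0.0464). Robo4, an endothelial guidance receptor, was at 2.96 and 3.07 against 1.91 and 1.83 (1.15 ± 0.24, adjusted p = 0.0339). For both, the day 14 arrays lay above both glands and untreated tumour. The third gene, Des, desmin, marks pericytes and muscle alike, and rose by 2.68 ± 0.43 (adjusted p = 0.0187). Vegfa itself, the ligand of Flt1, was at 4.87 and 4.81 against 1.88 and 2.22 (2.78 ± 0.37, adjusted p = 0.0129). The median of the vessel genes was 0.77 on slide 1 and 0.98 on slide 2, and that of the basement membrane genes 0.59 and 0.04.

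Skeletal muscle genes were far higher at day 14, with a median difference of 6.05 over 21 genes, 20 of which lay above parotid on every array. Over all 16375 genes tested, 4373 lay above parotid on every array. Of the 21, 7 passed as higher and none as lower, and parotid array 2 held muscle transcripts at levels well above those of array 1. Tnnc2, fast troponin C, was at 9.54 and 9.61 at day 14 and at -3.72 and 6.25 in parotid (8.31 ± 2.83, adjusted p = 0.109). Ttn, titin, was at 4.42 and 4.15 against -6.01 and -1.05 (7.82 ± 1.45, adjusted p = 0.0266), and Neb, nebulin, at 2.55 and 1.74 against -5.99 and -2.10 (6.19 ± 1.29, adjusted p = 0.0345). The day 14 arrays were nearly alike in these genes and the parotid arrays far apart. Casq1, calsequestrin, was at least 31.2-fold higher (adjusted p = 0.0331), and Trim63, a ubiquitin ligase of muscle, at least 43.3-fold higher (adjusted p = 0.0216). The summed muscle level was 11.28 and 11.35 at day 14, 3.08 and 8.09 in parotid, 5.28 in submandibular gland and 2.81 and 2.47 in untreated tumour. The median was 3.35 without parotid array 1 and 8.41 without array 2. With only the 4 arrays fitted 1 gene passed. Des and the FOXO targets Trim63 and Fbxo32, counted elsewhere, are also muscle genes, and the part of muscle tissue in their values was not tested.

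Some fat genes were higher as well, 4 of 16, with none lower and a median of 1.30. Of the 16, 14 lay above 0 and 2 below. Ucp1, the uncoupling protein of brown fat, was at 4.06 and 4.50 against -6.11 and -5.15, above background on neither parotid array, and at least 930-fold higher (adjusted p = 0.00092). Cidea, a lipid droplet protein of brown fat, was at 7.02 and 6.86 against -2.26 and 0.04 (8.05 ± 0.68, adjusted p = 0.00467). Ucp1 was low on the submandibular and untreated tumour arrays as well, whereas Cidea was at 3.28 and 3.08 in untreated tumour. Detection on both day 14 arrays alone was enough to admit a gene such as Ucp1. Genes of fat in general moved less: Lipe, hormone-sensitive lipase, by 1.87 ± 0.28, Cd36, a fatty acid transporter, by 1.30 ± 0.26, and Plin1, perilipin, at 3.01 and 2.62 against -0.75 and 1.78, did not pass (2.30 ± 0.92, adjusted p = 0.155). Adipoq and Cfd, of the same list, passed under no alternative, with differences of -0.39 to 1.48 and -0.92 to 1.46. Retn did not pass either, and lay below parotid under every alternative, from -2.06 to -0.59. The median of the fat genes was 1.94 on slide 1 and 0.59 on slide 2. Of 10 nerve and Schwann cell genes 4 rose, with a median of 0.82. Ngfr, a neurotrophin receptor, was at 4.90 and 5.07 against -0.30 and -0.92 (5.60 ± 0.26, adjusted p = 0.00092) and at 5.36 on the submandibular array. S100b, a Schwann cell calcium-binding protein, rose by 2.82 ± 0.29 (adjusted p = 0.00727) and Uchl1, a neuronal hydrolase, by 2.27 ± 0.53 (adjusted p = 0.0464, and up to 0.24 over the alternatives). The fourth was Ncam1, given above with its disagreeing probes.

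Lymphoid genes gave no call, and the parotid arrays lay on opposite sides of day 14. None of 16 T cell, 13 B cell and 10 lymph node genes was called. Ccl21a, a chemokine of lymph nodes, was at 4.63 and 4.80 at day 14 and at 6.01 and -0.61 in parotid (2.02 ± 1.91, adjusted p = 0.534). Parotid array 1 was above day 14 and array 2 far below, as was the submandibular array, at 1.14. The summed lymph node level was 7.06 and 7.21 at day 14 against 8.51 and 3.18. Without parotid array 1 the median of the lymph node genes was 4.08. On slide 1 the medians of the lymph node, B cell and T cell genes were -1.37, -0.68 and -2.17. On slide 2 they were 4.04, 4.32 and 1.28. The direction against parotid therefore depends on which parotid array is kept.

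**Figure D4:**
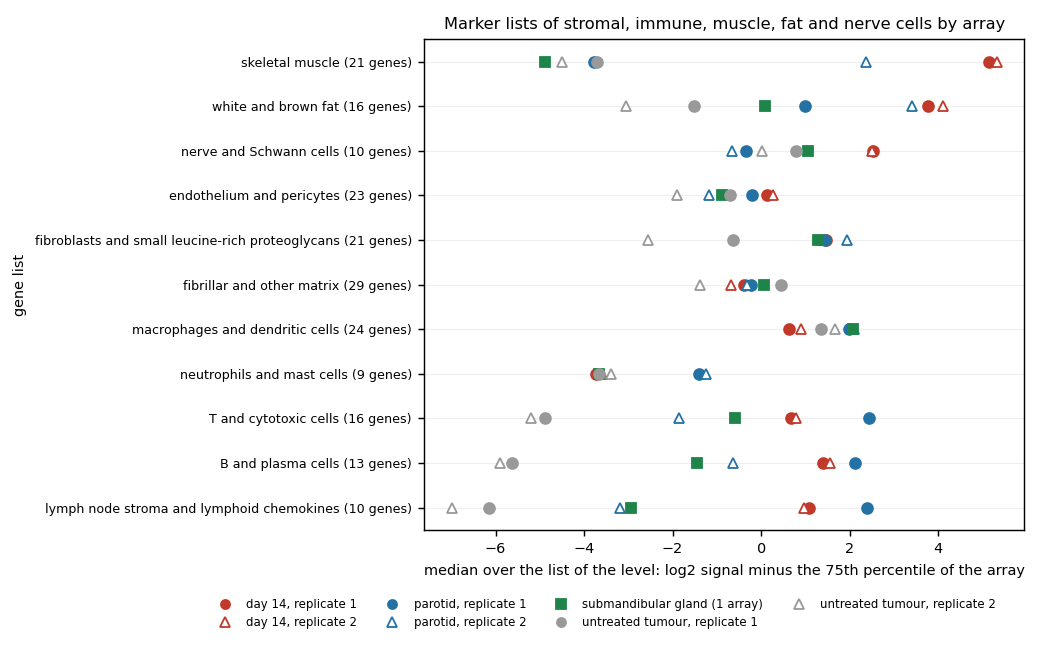
Median level over each marker list (horizontal axis, log2 relative to the array's 75th percentile) of stromal, immune, muscle, fat and nerve cells (rows), 1 mark per array. The muscle median lies at 5.15 and 5.33 at day 14 against -3.77 and 2.36 in parotid, that of lymph node genes splits the parotid arrays at 2.39 and -3.18, and that of macrophage genes lies at 0.62 and 0.90 at day 14 against 1.99 and 2.10.

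Some genes of protein synthesis were lower. Ribosomal protein mRNAs are translated under the control of mTOR complex 1, the target of rapamycin, although the arrays measure their abundance and not their translation. Of 24 cytosolic ribosomal protein genes 6 were lower and none higher, 22 lay below 0, and the median was -0.83. The count was 6 to 12 under the other scalings and background corrections, and 2 with only the 4 arrays fitted. The median was -0.71 on slide 1 and -1.02 on slide 2. Rpl4 was at 1.94 and 1.91 against 3.94 and 4.12 (-2.10 ± 0.19, adjusted p = 0.00555). Rpl3 was at 5.28 and 5.71 against 7.28 and 7.09 (-1.69 ± 0.26, adjusted p = 0.0181), and Rpl10a at 4.15 and 4.02 against 5.48 and 5.84 (-1.58 ± 0.22, adjusted p = 0.0141). All 3 large subunit genes were below parotid, submandibular gland and untreated tumour on both day 14 arrays. The list as a whole was not lowest at day 14 alone. Its median difference from parotid was -0.83 at day 14, -0.79 in untreated tumour and -0.59 in submandibular gland, and -0.09 between day 14 and submandibular gland. Rpl5 and Rps9 fell by 1.47 and 1.08. Rps6, the substrate of S6 kinase, listed with the PI3K components, was at 5.33 and 5.24 against 6.30 and 6.60 (-1.17 ± 0.23, adjusted p = 0.0292). Of 25 ribosome biogenesis genes 3 fell and 23 lay below 0, with a median of -0.60. Gar1, a small nucleolar RNA-binding protein, fell by 2.03 (adjusted p = 0.00862), Ncl, nucleolin, by 1.26 (adjusted p = 0.0193) and Gnl3, nucleostemin, by 1.12 (adjusted p = 0.0334), although the probes of Ncl ranged from -1.26 to 0.36. The median of the biogenesis genes was -0.56 on slide 1 and -0.53 on slide 2.

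**Figure D5:**
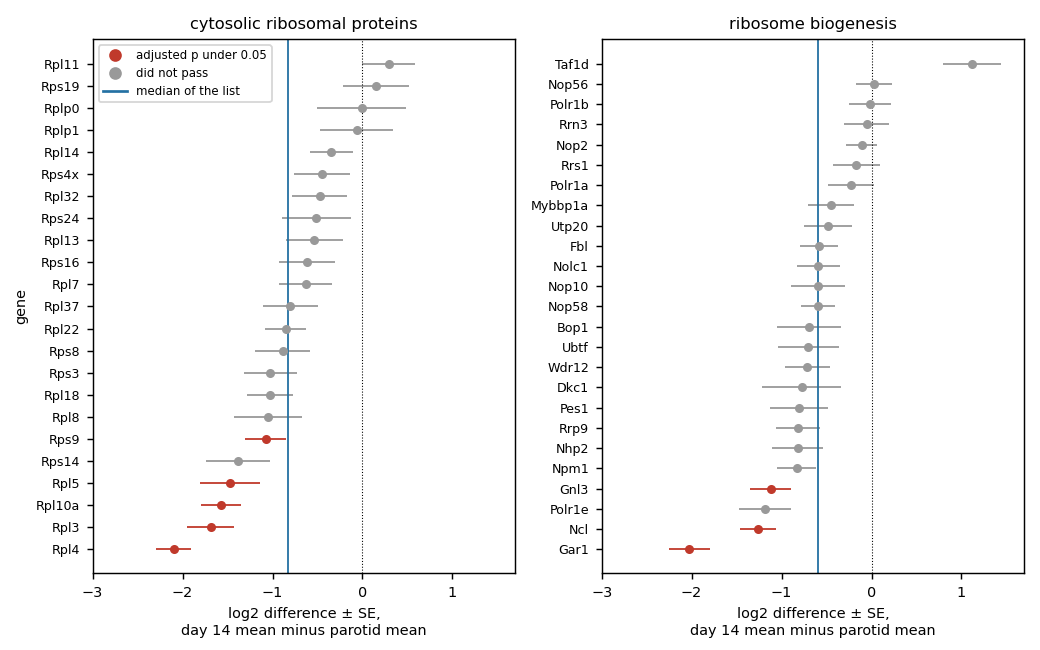
Difference between day 14 and parotid (log2, horizontal axis, with standard errors) for the reported cytosolic ribosomal protein and ribosome biogenesis genes, with a line at the median of each whole list, coloured where the adjusted p was under 0.05. Nearly all lie to the left of 0, with medians of -0.83 and -0.60, Rpl4 (-2.10) and Gar1 (-2.03) being the lowest.

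Called genes made up 0% (respiratory chain) to 17.9% (glycolysis and hypoxia) of the metabolic and stress lists. The share over all genes tested was 11.4%, with 6.31% higher and 5.09% lower. Of 25 sterol and fatty acid synthesis genes 4 fell, with a median of -0.51: the mevalonate pathway genes Fdps by 2.37, Mvk by 2.07 and Cyp51 to at least 3.48-fold lower, and Scd2, a fatty acid desaturase, by 1.15 (adjusted p = 0.0233, 0.0121, 0.0302 and 0.0367). The median of that list was -0.55 on slide 1 and -0.45 on slide 2. Of 22 genes of the ATF4 amino acid response 3 fell, Atf4 itself by 1.46, the glycyl-tRNA synthetase gene Gars by 1.62 and Shmt2, of mitochondrial serine metabolism, by 1.06. The direction of the ATF4 list turned on the parotid arrays, with a median of -1.09 without array 1 and 0.20 without array 2. Of 24 lysosomal genes 3 fell, among them Npc2 and Ctsz, which act in cholesterol export and proteolysis, by 1.30 and 1.07. The lysosomal median was -0.21 on slide 1 and -0.70 on slide 2. Of 27 interferon and MHC genes the interferon-induced Oas1a, Usp18 and Bst2 fell by 2.02, 1.86 and 1.13 (adjusted p = 0.0182, 0.0176 and 0.0313). The interferon and MHC median was -1.24 on slide 1 and -0.28 on slide 2. Respiratory chain genes gave no call among 25, with a median of -0.10, and 15 immediate early genes gave none. The immediate early median was 0.77 on slide 1 and -0.41 on slide 2. Of 23 ER folding genes Xbp1, given above, passed. The list turned on the parotid array kept, with a median of -0.39 without array 1 and 0.69 without array 2. Of 28 glycolysis and hypoxia genes 4 rose and 1 fell: Slc16a3 and Vegfa, given above, Adm, adrenomedullin, by 1.99 ± 0.46 and Pfkm, muscle phosphofructokinase, by 1.65 ± 0.33, whereas Eno1, enolase, fell by 1.16 (adjusted p = 0.0438, 0.0312 and 0.0381). The median of the glycolysis and hypoxia genes was 0.28 on slide 1 and 0.56 on slide 2.

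Transcripts of the AKT pathway itself gave few calls. Akt1, which encodes the main AKT isoform, was at 4.19 and 4.46 against 4.22 and 4.55 (-0.06 ± 0.22, adjusted p = 0.897). Mtor (0.24 ± 0.26, adjusted p = 0.591) and Akt2 (-0.87 ± 0.28, adjusted p = 0.0936) did not pass. The labels do not say which part of an AKT transgene these probes could read. Of 29 components 1 rose and 1 fell, with a median of -0.03. The rise was in Irs1, insulin receptor substrate 1, at 3.06 and 3.17 against 0.97 and 1.33 (1.96 ± 0.27, adjusted p = 0.0134), with 3.32 on the submandibular array. Of 22 FOXO factors and targets 4 (18.2%) rose, against 6.31% of all genes, with a median of 0.26. These were Gadd45a and Trim63, given above, Pdk4, pyruvate dehydrogenase kinase, by 2.15 ± 0.36 (adjusted p = 0.0214) and Fbxo32, atrogin, by 1.18 ± 0.20 (adjusted p = 0.0215). None of 12 ErbB receptors and ligands passed. The medians of the PI3K, FOXO and ErbB lists were 0.18, 0.30 and 0.72 on slide 1. On slide 2 they were -0.10, 0.09 and -0.56.

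The remaining genes among the 10 largest falls belonged to none of these lists. Gdpd3, a glycerophosphodiester phosphodiesterase, was at -4.12 and -2.57 against 4.0 and 2.57 (-6.63 ± 0.69, adjusted p = 0.00733) and at 2.33 on the submandibular array. Aspdh, a putative aspartate dehydrogenase, was at -2.56 and -1.48 against 4.09 and 3.04 (-5.58 ± 0.57, adjusted p = 0.00727). Vpreb2, a surrogate light chain gene of B cell precursors, was at -2.54 and -2.67 against 3.04 and 2.30 (-5.27 ± 0.49, adjusted p = 0.0056). Both parotid arrays were far above both day 14 arrays for these genes, and unlike Gdpd3 the other 2 were low on the submandibular array, at -4.92 and -5.11. Trim55, a muscle RING finger protein, was at least 41.5-fold lower, Slc25a21, a mitochondrial oxodicarboxylate carrier, at least 37.9-fold, and the pseudogene Serpina4-ps1 at least 33.0-fold (adjusted p = 0.0169, 0.00697 and 0.00716). Vnn3, a vanin family pantetheinase, fell by 4.88 (adjusted p = 0.00547), at -4.27 and -3.67 against 1.00 and 0.83. Trim55 thus fell, whereas 20 of the 21 listed muscle genes lay above parotid.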

How the data were processed

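Total RNA of 8 mouse salivary samples was hybridised to 1-colour Agilent arrays, 1 array per sample. Feature Extraction 10.7.3.1 was used on array design 014868, annotated on mm8, per the file headers. For each spot the authors deposited a background-subtracted, spatially detrended intensity that is not scaled between arrays. A table of log2 values that the authors deposited for the same arrays was used as an alternative only.

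Flagged spots were left out, which dropped 273 probes, and no spot was saturated. A probe stayed in if some group had it well above background on all of its arrays (24298 probes, 16375 genes, 11080 of them well above background on all 8 arrays). The brightest probe stood for a gene, and 119 called genes had probes that differed in sign. Names came from RefSeq by accession (23366 probes), symbol (6739) or synonym (2918), and 8151 probes kept the file's name. The log2 intensity minus its array's 75th percentile was fitted with limma 3.58.1 (R 4.3.3): a mean for each of 5 groups over 8 arrays, with an intensity trend, with 3 residual and 3.27 prior degrees of freedom. Single-array groups were assumed to vary like the others. Adjusted p-values are two-sided Benjamini-Hochberg values over all genes, with a threshold of 0.05. Simulated data had 200 of 16375 genes shifted, against 1866 called in the real data. On the simulated data the fit called 0% of genes shifted by 1 unit, 36.0% by 2, 82.0% by 4, 86.0% by 6 and 0.0185% of unshifted genes. The adjusted p depends on how many genes differ, so these rates do not carry over directly to the real data. The number of arrays limits the precision.

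The arrays, the 40 gene lists (826 symbols, 816 named on the array, 761 tested) and the tests were chosen with earlier results of these data known. Named genes were the 10 largest called rises and falls that did not overlap and had the same sign on both slides, passing over clone-type names (3 among the falls), any list member, all 17 tumour transcripts, and Akt1, Akt2, Apc, Ctnnb1 and Mtor. Day 14 and parotid arrays with the same number did not deviate together (correlation -0.08 over genes, 2 pairs). Promoters came from a RefSeq table on GRCm38.p6 and were not matched to the probes' mm8 positions. Alternatives covered background, scaling, filters, probe choice, slide, replicate block and each array left out. A few genes are not reported here, though counts and medians of lists include them.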

Additional observations from a re-analysis of the deposited data

How the results depend on the processing

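Of the 1866 genes called, 1033 higher and 833 lower, fewer passed with the normexp background (1220, 654 higher), with only the 4 arrays fitted (690, 468 higher, 222 lower) and without 1 untreated tumour array. Leaving out each day 14, parotid or untreated tumour array in turn gave 0 to 5881 calls, 0 to 2802 higher and 0 to 3079 lower. The 0 calls came without either day 14 array, with 2825 and 3171 genes at an unadjusted p under 0.05 in limma against 4962 with all arrays. Keeping only probes detected on all 8 arrays gave 617 higher and 735 lower, so that falls outnumbered rises, in a set that leaves out genes dim in parotid. With the replicate number as a block 1183 genes passed, 682 higher and 501 lower, although the numbers were not found to pair the arrays. With the deposited values 2054 passed, with quantile normalization 2446, and with the block 113 of the 148 called genes among those named stayed past the threshold. The value of Ncam1 reversed to -0.046 when only probes detected on all 8, or on the 4 compared, arrays were kept, since another probe then stood for it. Apart from the changes that follow from fewer arrays or probes, the cause of each change was not tested. No scaling moved the median of all genes by over 0.1. Genes dim in parotid (268 of those called) or at day 14 (121) have only a lower bound for their fold.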

Other observations

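The genes given here were singled out after their values were seen and belong to none of the lists. Several were detected on both day 14 arrays and on neither parotid array, and detection on both day 14 arrays alone was enough to admit a gene. Tlx1, a homeobox transcription factor, was at 1.91 and 1.67 at day 14, at -6.12 and -5.11 in parotid and at 1.95 in submandibular gland, at least 164-fold higher than in parotid (limma adjusted p = 0.00246). Duoxa2, the maturation factor of a hydrogen peroxide-generating oxidase, was at 1.60 and 1.40 against -6.12 and -4.64 and at 2.79 in submandibular gland, at least 113-fold higher (adjusted p = 0.00685). Scgb2b26, a secretoglobin, was at 8.07 and 8.09 against -1.84 and 2.80, with 9.23 in submandibular gland (7.60 ± 1.35, adjusted p = 0.0241). For these 3 genes the day 14 arrays and the submandibular array were high and parotid low.

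Other genes were high at day 14 and in neither gland. Detection on both day 14 arrays alone was enough to admit a gene, so finding such genes depends in part on this filter. Pnliprp1, a pancreatic lipase-related protein, was at least 143-fold higher than in parotid (adjusted p = 0.00304), with -5.15 in submandibular gland and -7.31 and -6.82 in untreated tumour. Nmrk2, a nicotinamide riboside kinase of muscle, was at least 167-fold higher (adjusted p = 0.00741). Dusp16, a phosphatase of stress-activated kinases, was at 2.11 and 1.88 at day 14 and at 2.11 and 1.89 in untreated tumour, at least 71.9-fold above parotid (adjusted p = 0.0035), although its second probe differed by 1.36. Rmnd1, a mitochondrial translation factor, was at 3.52 and 3.93 against -3.37 and -3.54, with 2.71 and 2.66 in untreated tumour (7.18 ± 0.25, adjusted p = 0.00092), and well above background on 1 of the 2 parotid arrays. The long non-coding RNA Snhg11 was at least 92.3-fold higher (adjusted p = 0.00395).

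Among the falls, Prp2, a proline-rich protein, was at 4.09 and 4.45 against 8.93 and 8.69 (-4.54 ± 0.23, adjusted p = 0.00129), the same direction as Prpmp5. Adcyap1, which encodes the neuropeptide PACAP, was at least 24.8-fold lower (adjusted p = 0.00891), and Cd38, an NAD-consuming ectoenzyme, at least 22.1-fold lower (adjusted p = 0.00803), with its second probe at 1.30.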
